A study of Mus musculus with 4 samples.

Results

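Phase II enzymes attach a small polar group to drugs, bile pigments, steroids and reactive electrophiles so that the product can leave the cell, and carboxylesterases cleave esters and often act on the same compounds beforehand. Genes of these enzymes were taken by symbol from the array, as the UDP-glucuronosyltransferases (Ugt1, Ugt2 and Ugt3), the glutathione S-transferases (Gst), the sulfotransferases (Sult) and the carboxylesterases (Ces). The array held 72 such genes on 98 probes. Of these, 48 gave signal well above background on 2 or more arrays, out of 19325 genes that met the same filter. Beyond this filter, the rule uses gene symbols and no expression value. The filter keeps genes that are bright in 1 genotype alone, and 24 member genes did not pass it.

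The study measured total RNA of whole colon from C57BL/6 mice on day 5 of drinking dextran sulfate sodium (DSS), which injures the colonic epithelium. Its stated purpose was to characterize a more severe DSS colitis in mice carrying Cd4-Cre with the floxed Junb gene. Controls were Junb fl/fl mice without Cre (2 arrays), and mutants were Junb fl/fl Cd4-Cre mice (2 arrays). Both genotypes carried the floxed allele and both received DSS, and untreated colon was not analysed here. Cd4-Cre acts in T cells, so the enzyme-bearing epithelium keeps its Junb alleles in the mutants, and the tissue also contains muscle, fat and immune cells. In such bulk tissue, fewer cells of a type and less RNA per cell cannot be told apart. The labels do not say how many animals an array represents or whether arrays came from separate animals, so p-values measure the spread between these samples.

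Glucuronidation uses UDP-glucuronic acid, glutathione conjugation uses reduced glutathione and sulfation uses the activated sulfate PAPS. The colonic surface epithelium is a known site of all 3 reactions. Carboxylesterases of the endoplasmic reticulum hydrolyse drug esters, and several also hydrolyse triacylglycerol and cholesteryl esters.

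All 4 arrays lay on 1 slide with a single scan. Between 27935 and 29090 probes were well above background, no probe was saturated, and the arrays correlated at r = 0.976 to 0.984. Signals are given as log2 of the background-corrected intensity minus the array's own 75th percentile, so 0 stands for that percentile, and levels of different genes are not compared. Junb itself had log2 signals of 4.23 and 4.39 in controls against 4.44 and 4.47 in mutants (log2 difference 0.15 ± 0.11, SE, n = 2 and 2; limma adjusted p = 0.691). Transcripts from every cell of the colon enter that value, so it does not check a deletion in T cells. Both replicate 1 arrays carried Xist (-0.55 in the control, -0.77 in the mutant) and both replicate 2 arrays carried the Y-linked gene Eif2s3y (0.20 and -0.11), while each gene was near -6 on the other arrays. The labels give no sex. Differences within replicate 1 and within replicate 2 are therefore given beside the pooled ones. Vil1 and Epcam, markers of intestinal epithelium, were bright on all 4 arrays, with log2 differences of 0.08 and 0.12. The colonic gene Car1 was between 7.33 and 7.83, with a difference of -0.20. Of the 17 colonocyte markers that include these genes, 11 were below 0, with a median of -0.16.

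To show the upstream sequence of members whose log2 signals were lower in both mutants, 250 bases before the RefSeq start site are printed for the 4 such genes with an unadjusted p under 0.05, signal above background on all arrays and a RefSeq promoter entry (GRCm38.p6, 5′ to 3′ on the gene's strand). Capitals mark a match to 1 of 4 searched motifs.
Ces1g promoter, chr8:93337210-93337459, strand -: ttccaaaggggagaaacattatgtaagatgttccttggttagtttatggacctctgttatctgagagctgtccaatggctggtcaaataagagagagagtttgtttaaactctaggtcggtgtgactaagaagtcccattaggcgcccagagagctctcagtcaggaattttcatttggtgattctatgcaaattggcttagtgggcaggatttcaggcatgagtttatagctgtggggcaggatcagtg
Sult1c2 promoter, chr17:53845959-53846208, strand -: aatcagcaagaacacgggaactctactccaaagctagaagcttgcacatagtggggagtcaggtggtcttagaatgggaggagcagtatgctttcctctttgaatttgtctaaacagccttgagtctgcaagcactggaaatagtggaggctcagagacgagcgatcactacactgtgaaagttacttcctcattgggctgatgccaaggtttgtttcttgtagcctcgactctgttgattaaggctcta
Gstt1 promoter, chr10:75797732-75797981, strand -: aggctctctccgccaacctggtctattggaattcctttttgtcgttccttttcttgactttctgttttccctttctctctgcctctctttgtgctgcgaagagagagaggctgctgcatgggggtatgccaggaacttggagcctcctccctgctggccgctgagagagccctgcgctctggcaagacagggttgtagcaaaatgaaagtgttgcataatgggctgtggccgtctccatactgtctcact
Gsta2 promoter, chr9:78347146-78347395, strand -: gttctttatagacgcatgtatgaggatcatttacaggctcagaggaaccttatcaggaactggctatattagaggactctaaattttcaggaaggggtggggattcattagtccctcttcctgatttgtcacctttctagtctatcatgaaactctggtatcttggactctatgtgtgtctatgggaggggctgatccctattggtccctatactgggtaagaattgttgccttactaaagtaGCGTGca
The motifs were the AP-1 site TGANTCA, bound by JUN and FOS family proteins, the core of the antioxidant response element TGACNNNGC, the aryl hydrocarbon receptor core GCGTG and the HNF1 motif GTTAAT. Both strands were searched over 250 bases before and 50 after each start, and 41 of the 48 members had an entry, with 52 promoters. In the 4 sequences above, the only match was GCGTG in the Gsta2 promoter, whose first base lay at -7 from the start site. AP-1 letters were found in 10 of the 52 member promoters (19.2%) against 7.81% of 32851 promoters. They occurred in Gstm5, Gstp1, Gstp2, Sult1b1, Sult1c1, Sult2a8, Sult2b1, Ugt1a6a, Ugt2b37 and Ugt2b38, none of which had an unadjusted p under 0.05. The antioxidant response core was in 5.77% of member promoters against 12.4% of all, GCGTG in 17.3% against 32.4%, and the HNF1 motif in 6 of the 52 against 7.1% of all. These matches describe letters only and are not evidence of binding.

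Signals of these enzymes were mostly lower in the mutants, by small amounts. The log2 difference, mutant minus control, was below 0 for 42 of the 48 members, or 87.5%, against 46.6% of all genes tested. The members' median difference was -0.20, where the median over all genes was 0.02. In 19 members (39.6%) both mutants lay below both controls, against 17.6% of all genes. Sult2a8 and Gstt2 were the 2 members (4.17%) whose mutants both lay above both controls, against 25.7% of all genes. Of the 45 members above background on all 4 arrays, which the filter could not have favoured in 1 genotype, 39 were below 0. Their median was -0.19, against 0.02 over all genes with such signal. These shares describe the 48 measured members and were not tested, since members share tissue, cells and arrays.

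None of the 48 members passed a Benjamini-Hochberg adjusted p of 0.05 in limma, and neither did any of the 19325 genes (0%). The lowest adjusted p among members was 0.418. At an unadjusted p under 0.05, 7 members (14.6%) were lower, namely Ces1g, Ces1d, Ces1f, Sult1c2, Sult5a1, Gstt1 and Gsta2, against 3.98% of all genes. None was higher at that threshold, against 5.31% of all genes. Sult5a1 passed the filter through the controls alone, so the filter favoured its call. Among the 45 members above background on all 4 arrays, 6 were lower at that threshold. Over all genes with such signal 780 were lower, and their share was not computed. After quantile normalization the count of members was 12, and that over all 19325 genes was 872 rather than 770. With control replicate 2 left out, 3 of the 7 kept such a p, which were Ces1g, Sult1c2 and Gstt1.

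The shift was larger in mutant replicate 1 than in mutant replicate 2. Mutant replicate 1 was the lowest of the 4 arrays for 31 members (64.6%), against 27.1% of all genes, and mutant replicate 2 for 9 members (18.8%), against 15.6%. Within replicate 1, 42 members were lower, with a median difference of -0.31, against 9910 of all 19325 genes and a median of -0.01. Within replicate 2, 30 members were lower, with a median of -0.06, against 8023 of all genes and a median of 0.04. Without mutant replicate 1, 30 of 48 members remained below 0. Their median was then -0.06, against 0.04 over all genes, whose share below 0 was not computed there. Still, 26 members (54.2%) were lower in both replicates, against 29.1% of all genes. A fit with the replicate number as a term, which also separates the Xist-bearing from the Eif2s3y-bearing arrays, called 0.238% of all genes at an adjusted p under 0.05, and no member. There, 10 members (20.8%) were lower at an unadjusted p under 0.05, against 7.44% of all genes, and 1 was higher (Sult2a8), against 10.1%.

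**Figure D1:**
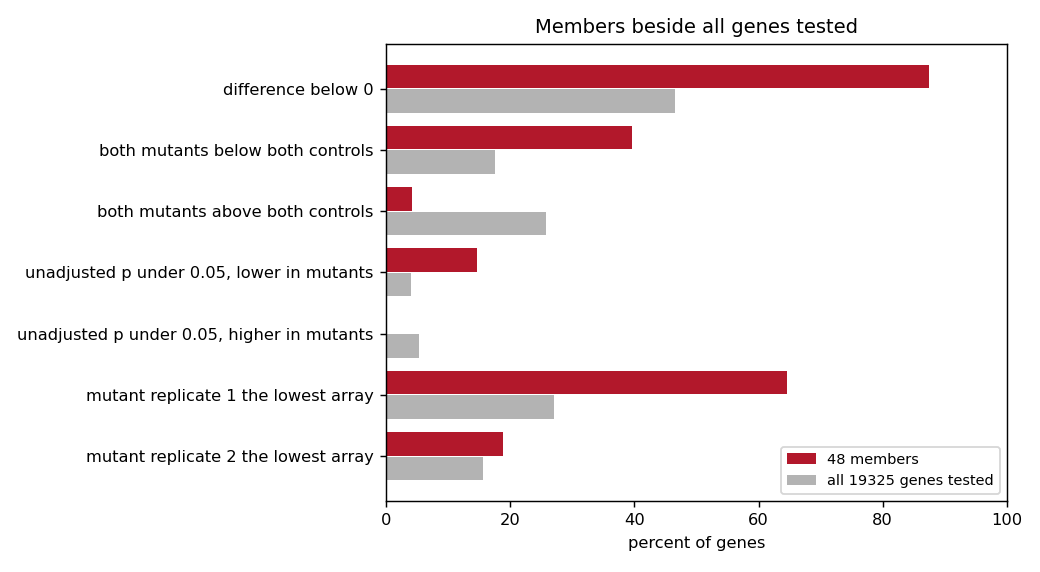
Share of the 48 members (red) and of all 19325 genes tested (grey) that met each description, in percent. Members with a difference below 0 made up 87.5% against 46.6%, and those with mutant replicate 1 as the lowest array 64.6% against 27.1%.

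Carboxylesterases had the lowest median difference of the 4 families. All 10 that passed the filter had a difference below 0, with a median of -0.45, and 5 had both mutants below both controls. The median was -0.71 within replicate 1 and -0.21 within replicate 2. Members of the Ces1 and Ces2 groups lie in separate clusters on chromosome 8 of mm9, the build of the array's probe coordinates. Placement of the probes in exons or untranslated regions was not analysed here.

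In the Ces1 cluster, Ces1g, a lipid-handling esterase of liver and gut (probe at chr8:95826722-95826781), had log2 signals of -0.29 and 0.09 in controls against -1.67 and -1.10 in mutants. The genotypes did not overlap, and the mutant signal was 2.43-fold lower (log2 difference -1.28 ± 0.26; adjusted p = 0.418). Its difference was -1.38 within replicate 1 and -1.18 within replicate 2, and it kept an unadjusted p under 0.05 when any 1 array was left out. Ces1d, a triacylglycerol hydrolase of liver and fat (chr8:95698949-95699008), measured 0.11 and 0.69 in the controls against -1.04 and -0.36 in the mutants. Both mutants were again below both controls, 2.15-fold on average (-1.10 ± 0.31; adjusted p = 0.430), and the call at the unadjusted threshold was lost without control replicate 2. For Ces1f, a related lipid esterase (chr8:95780225-95780284), the controls were nearly equal at 2.42 and 2.41, and the mutants stood at 1.55 and 2.12. Mutant replicate 1 was the low array here: the difference of -0.58 ± 0.21 (adjusted p = 0.513) became -0.29 without it, and the call was also lost without either control and when the variance fit had no intensity trend. Ces1e, the esterase that anchors beta-glucuronidase in the endoplasmic reticulum, lies between Ces1d and Ces1f. Its signals were -0.32 and -0.10 in controls against -0.73 and -0.02 in mutants, so the genotypes overlapped (-0.17 ± 0.27; adjusted p = 0.864).

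Ces1d and Ces1f are also known from fat, and adipocyte markers were lower in the mutants: 7 of 8 tested were below 0 and 5 of them at an unadjusted p under 0.05, with a median of -0.76. The log2 of their summed signal was 4.42 and 4.26 in controls against 2.94 and 3.39 in mutants. Adipoq, the fat hormone adiponectin, measured -0.74 and -1.80 against -3.98 and -3.04, and Plin1 was not above background on enough arrays. The part of fat content in the Ces1 differences was not tested. Of 9 hepatocyte markers, Alb, Fga, Fgb, Cps1 and Ahsg did not pass the detection filter, and 4 did. Of those 4, Ttr (-0.34) and Serpina1a (-0.50) had both mutants below both controls, while Apoa2 and Tat differed by 0.12 and 0.31. The part of liver-type transcripts was not tested either.

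The Ces2 genes, esterases abundant in intestinal epithelium (chr8:107263207-107492338), had no member at an unadjusted p under 0.05. With the replicate number in the fit, Ces2b and Ces2c passed that threshold, and Ces2b also did with normexp correction and both with quantile normalization. Ces2b measured 4.96 and 5.11 in controls against 4.22 and 4.84 in mutants (-0.50 ± 0.22; adjusted p = 0.565). Ces2c, which hydrolyses acylglycerols in the gut, was at 5.60 and 5.77 against 4.92 and 5.61, a difference of -0.42 ± 0.24 with overlapping genotypes. Its probe also lists a transcript of the pseudogene Ces2d-ps. Mutant replicate 1 was the lowest array in 5 of the 6 Ces2 genes, and Ces2a shows the pattern most plainly, with 2.23, 2.26 and 2.38 on 3 arrays and 1.36 on that one. Ces2g was the exception, with its lowest signal in mutant replicate 2 (-2.67) and a difference of -0.49 ± 0.28. Ces2f and Ces2e differed by -0.14 and -0.06. Within replicate 2 the Ces2 median was -0.03.

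**Figure D2:**
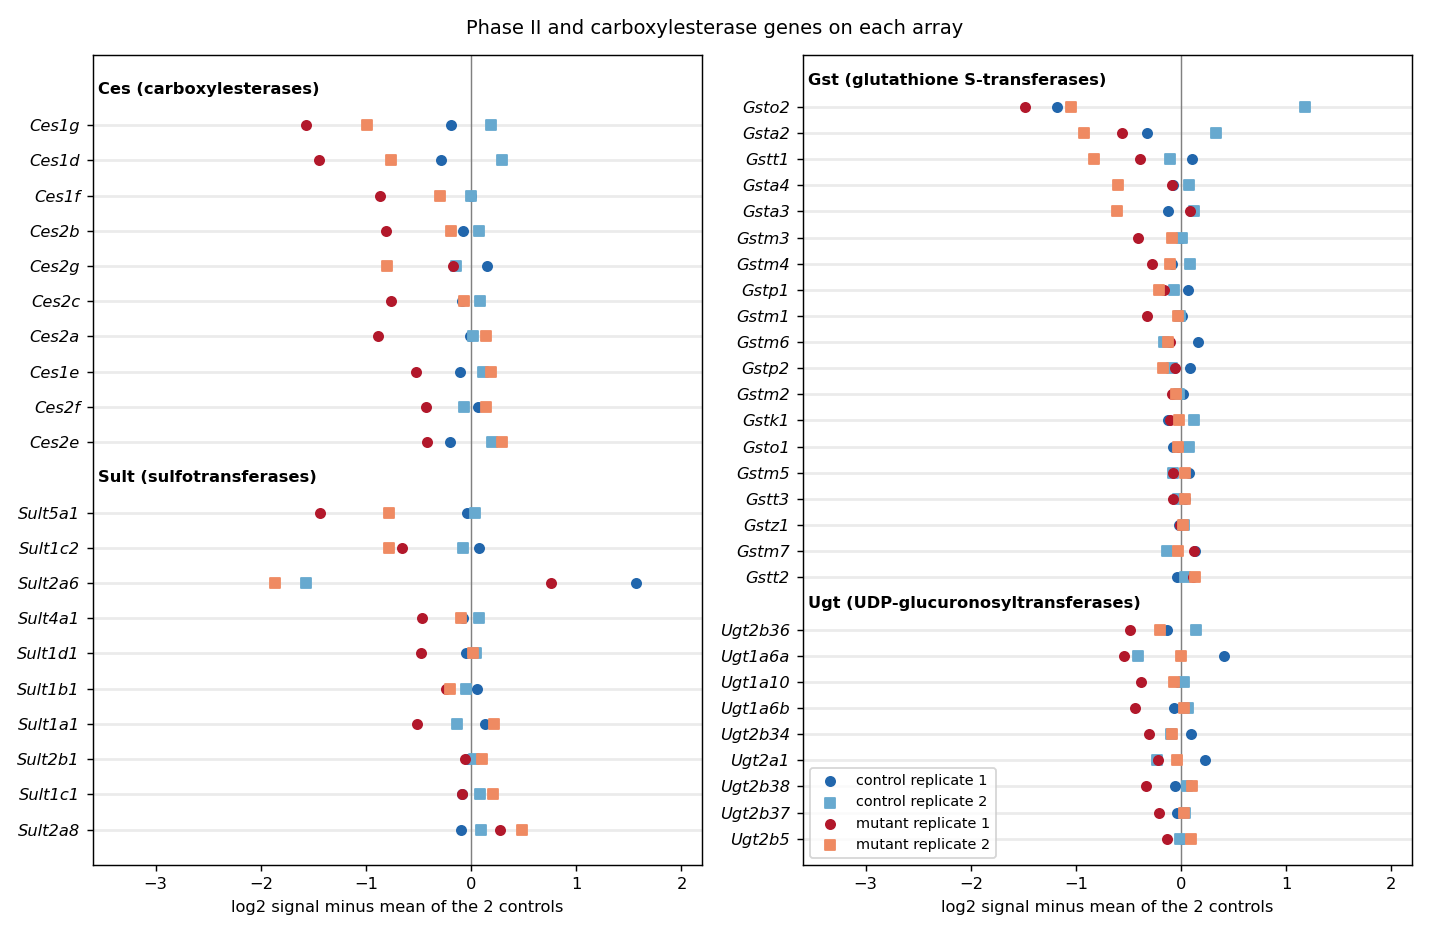
Log2 signal of each of the 48 members on each array, minus the mean of the 2 controls (blue, controls; red and orange, mutants; circles, replicate 1; squares, replicate 2). Ces1g and Ces1d lie far left in both mutants, Ces2a in mutant replicate 1 alone, and Sult2a8 lies right in both.

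Of 10 sulfotransferases, 7 were below 0, with a median of -0.23 (-0.41 within replicate 1, -0.09 within replicate 2). Sult1c2, a cytosolic sulfotransferase (chr17:53969205-53969264), had signals of 2.58 and 2.43 in controls against 1.85 and 1.72 in mutants. Its groups stood well apart, 1.64-fold lower in the mutants (-0.72 ± 0.12; adjusted p = 0.418), and the difference was alike in both replicates, at -0.73 and -0.71. No single array removed the unadjusted call. Sult1c2 had the lowest p of all members. The related gene Sult1c1 differed by 0.06.

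Sult5a1 was dim, with -3.83 and -3.76 for controls against -5.23 and -4.57 for mutants, in which it was not well above background on either array. The signal was at least 1.31-fold lower in the mutants, comparing the mean of the bright group with the lowest signal among probes well above background on each mutant array; the measured means differ 2.16-fold (adjusted p = 0.522). This call was lost with normexp correction, quantile normalization, no dim-probe filter or averaged probes, and without either control or mutant replicate 1.

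The sulfotransferases that conjugate phenols in the gut had smaller differences. Sult1b1, which acts on phenols and thyroid hormone, measured 4.76 and 4.65 against 4.46 and 4.50, with both mutants lower (-0.22 ± 0.10; adjusted p = 0.579). Sult1a1, the main phenol sulfotransferase, measured 4.60 and 4.34 against 3.96 and 4.69, so that its mutants lay on either side of the controls. Its difference was -0.65 within replicate 1 and 0.34 within replicate 2. Sult1d1, an enzyme for catecholamines, differed by -0.23, Sult4a1 by -0.29 and Sult2b1, a cholesterol sulfotransferase of epithelia, by 0.02.

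Sult2a8, of the hydroxysteroid and bile acid sulfotransferase group, went the other way. It measured -1.06 and -0.87 in controls against -0.69 and -0.49 in mutants, without overlap (0.38 ± 0.16; adjusted p = 0.565; 0.37 and 0.39 within replicates 1 and 2). Its unadjusted p was under 0.05 with the replicate number in the fit. The Sult2a6 probe used was above background only on the replicate 1 arrays, at -3.05 in the control and -3.86 in the mutant. It measured -6.19 and -6.49 on the replicate 2 arrays, and no RefSeq transcript was matched to it. A second Sult2a6 probe did not follow replicate number. That probe was above background on control replicate 1 alone (-0.85), with -6.31 on mutant replicate 1. The other Sult2a genes on the array, from Sult2a1 to Sult2a5 and Sult2a7, did not pass the filter, nor did Sult1e1, Sult3a1 and Sult6b1.

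Glutathione S-transferases were detected almost completely, with 19 of 20 genes passing and only Gstt4 left out. Differences were small for most: 16 were below 0, the median was -0.12, and it was alike within both replicates (-0.14 and -0.09). Gstt1, a theta-class enzyme for small halogenated compounds (chr10:75246560-75246619), measured 2.32 and 2.10 in controls against 1.81 and 1.38 in mutants. The groups did not overlap, at 1.53-fold lower in the mutants (-0.61 ± 0.18; adjusted p = 0.445), although the unadjusted call was lost without control replicate 1 or without mutant replicate 2. Its class neighbours Gstt2 and Gstt3 differed by 0.12 and -0.02. A second Gstt2 probe differed by -0.01.

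The 3 genes of the alpha class, which handles lipid peroxidation products, all had their lowest signal in mutant replicate 2. Gsta2 (chr9:78178856-78178915) had signals of 2.33 and 2.98 in controls against 2.09 and 1.73 in mutants (-0.74 ± 0.26; adjusted p = 0.495). The mutants were below both controls, but control replicate 2 was the high array, and without it the difference was -0.42. The call was also lost without mutant replicate 2 and when the variance fit had no intensity trend. Gsta4, an enzyme for 4-hydroxynonenal, measured 0.52 and 0.67 against 0.50 and -0.01, and Gsta3 measured -0.54 and -0.29 against -0.33 and -1.02. For the 3 alpha genes the median difference was -0.02 within replicate 1 and -0.73 within replicate 2, the reverse of the order in carboxylesterases.

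The mu class had small differences. Gstm3 measured 4.06 on both controls and 3.65 and 3.97 in the mutants (-0.25 ± 0.14; adjusted p = 0.621), and the difference was -0.09 without mutant replicate 1. Gstm4 and Gstm1 differed by -0.19 and -0.18, and Gstm2, Gstm5, Gstm6 and Gstm7 by between -0.12 and 0.05. The file places the brighter Gstm1 probe on chromosome 5, so its target is uncertain, and the dimmer probe differed by -0.14. In the pi class, the main electrophile-conjugating class of many epithelia, Gstp1 differed by -0.19 and Gstp2 by -0.12, and the Gstp1 probe lists transcripts of both genes. Of the remaining genes, Gstk1, Gsto1 and Gstz1 differed by -0.06, -0.03 and 0.00. Gsto2 had a difference of -1.27 ± 0.79, but control replicate 2 at -1.15 stood alone against -3.51, -3.82 and -3.38 on the other arrays, and within replicate 1 the difference was -0.31.

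All 9 UDP-glucuronosyltransferases that passed had a difference below 0, and none had an unadjusted p under 0.05. Their differences ran from -0.35 to -0.02 with a median of -0.20. The median was -0.35 within replicate 1 and 0.01 within replicate 2, so mutant replicate 2 lay close to its same-numbered control. Ugt2b36 had the lowest p of the family, with signals of -0.94 and -0.67 in controls against -1.29 and -1.01 in mutants (-0.35 ± 0.19; adjusted p = 0.619), and its differences of -0.35 and -0.34 were alike in both replicates. Ugt1a10, of the group that glucuronidates phenols and bilirubin, measured 0.26 and 0.32 against -0.09 and 0.22 (-0.22 ± 0.16; adjusted p = 0.675). Ugt2b34 measured 4.45 and 4.26 against 4.04 and 4.27, with overlap (-0.20 ± 0.13; adjusted p = 0.666). The bright Ugt1a6b probe, for a phenol-conjugating isoform, measured 6.16 and 6.29 against 5.79 and 6.25 (-0.21 ± 0.18), while its other probes differed by -0.28 and 0.08. Without mutant replicate 1, the Ugt2b34 difference was -0.09 and that of Ugt1a10 -0.07. Ugt2a3, Ugt2b1, Ugt2b35, Ugt3a1 and Ugt3a2 did not pass the filter.

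Ugt genes are hard to tell apart on the array, since Ugt1a isoforms share their last exons. Of the 48 probes, 7 list RefSeq transcripts of more than 1 gene, and 5 of these 7 are Ugt probes (Ugt1a10, Ugt1a6a, Ugt1a6b, Ugt2a1 and Ugt2b36). The most alike probes of different members were those of Ugt2b37 and Ugt2b5. These 60-base probes overlap over 55 bases and match at 46 of them. To show how close they are, 30 aligned bases from the middle of the overlap are given as the file writes them, with mismatched bases in capitals.
Ugt2b37 probe: agcctcattctAatttatgaGccaccttct
Ugt2b5 probe: agcctcattctTatttatgaAccaccttct
In this stretch 2 bases differ, and the other mismatches lie outside it, so the stretch is more alike than the whole overlap. Both genes had small differences, -0.09 for Ugt2b37 and -0.02 for Ugt2b5, and Ugt2b38 and Ugt2a1 differed by -0.12 and -0.13.

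**Figure D3:**
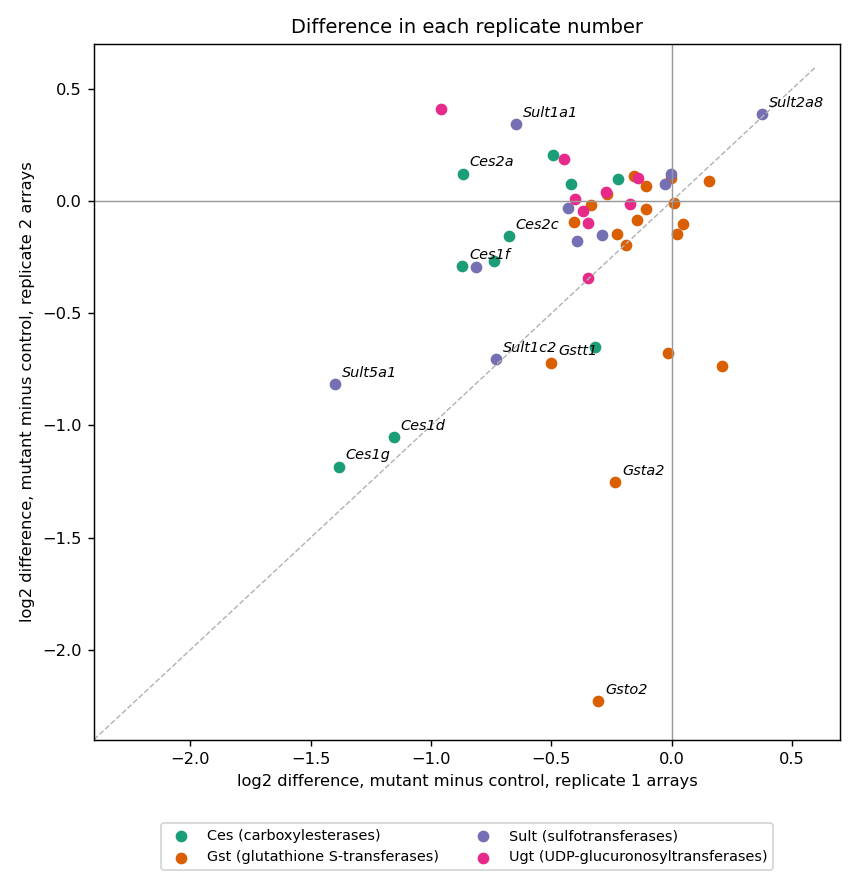
Log2 difference (mutant minus control) of each member on the replicate 1 arrays (x axis) and the replicate 2 arrays (y axis), coloured by family, with a dashed line of equality. Ces1g, Ces1d and Sult1c2 lie near the line, most Ces and Ugt genes lie above it and Gsta2 and Gsto2 lie far below it.

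Among the genes that supply cofactors, Ugdh, which makes UDP-glucuronic acid, measured 5.21 and 5.04 in controls against 4.52 and 4.84 in mutants (-0.44 ± 0.15; adjusted p = 0.489). It was the only 1 of 4 glucuronidation cofactor genes with such a p, and their median was -0.17. Gusb, the beta-glucuronidase that removes glucuronic acid, differed by 0.27 ± 0.12. None of 6 sulfation cofactor genes had an unadjusted p under 0.05, and the PAPS synthases Papss1 and Papss2 each differed by -0.05. Of 11 genes of glutathione synthesis and recycling, 2 were higher at that threshold and none lower: Gpx2, the epithelial glutathione peroxidase, at 6.62 and 6.72 against 7.69 and 7.17 (0.76 ± 0.19; adjusted p = 0.418), and Gsr, glutathione reductase (0.37 ± 0.12; adjusted p = 0.489). The list's median was -0.01. Among 14 other phase II genes, Inmt, an N-methyltransferase (-1.45 ± 0.34), and Aadac, a microsomal esterase (-0.57 ± 0.17), were lower at an unadjusted p under 0.05, and Mgst1, a microsomal glutathione transferase, was higher (0.31 ± 0.11). The adjusted p of each of these exceeded 0.05.

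The fixed regulators of these enzymes showed small differences. The xenobiotic receptor Nr1i2 (PXR) differed by -0.16 ± 0.31, Ahr by -0.21 ± 0.13, Nfe2l2 (NRF2) by -0.03 ± 0.14 and Hnf4a by 0.08 ± 0.11. Of 20 nuclear receptors and partners, 1 was higher at an unadjusted p under 0.05, the intestinal transcription factor Cdx2 (0.43 ± 0.13, adjusted p = 0.439), and none was lower. In this list 7 genes were below 0 and 13 above. Ahrr had a larger difference (-0.77 ± 0.33), but it was dim and passed the filter through the controls alone. It measured -3.49 and -2.96 in controls against -3.98 and -4.02 in mutants. In Ahr, too, both mutants lay below both controls. For 11 NRF2 pathway genes the median was -0.02, 1 was higher at that threshold and none lower, and Nqo1, a classical NRF2 target, differed by -0.19. Conjugates and drugs leave cells through ABC and SLC transporters. Of 13 tested, 3 were lower at an unadjusted p under 0.05, namely Abcc5 (-0.58 ± 0.13) and the P-glycoprotein genes Abcb1b (-0.98 ± 0.24) and Abcb1a (-0.88 ± 0.28), and the bile acid exporter subunit Slc51b was higher (0.44 ± 0.12). Abcb1a differed by -1.46 within replicate 1 and -0.30 within replicate 2.

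Markers of the cells that could carry these enzymes also differed. Of 17 colonocyte markers, 11 were below 0, 3 of them at an unadjusted p under 0.05 (Cyp2c55 at -0.92, Aqp8 at -0.68 and Car2 at -0.42) and 1 was higher (Guca2b at 0.31). Their median was -0.16, and it was -0.27 within replicate 1 and 0.13 within replicate 2. The log2 of their summed signal was 10.42 and 10.47 in the controls, 10.19 in mutant replicate 1 and 10.47 in mutant replicate 2. Goblet cell markers had a median of -0.08, 7 small intestinal enterocyte markers -0.37, and 10 proliferation genes 0.85, with 9 of the 10 higher at an unadjusted p under 0.05. All 9 smooth muscle markers were below 0, 8 of them at that threshold, with a median of -0.59. All 7 fibroblast markers were below 0 (median -0.28), as were all 6 T and B cell markers (median -0.27). The lowest of the latter was Cd8a (-1.81 ± 0.31), which passed the filter through the controls alone. By the bound used for Sult5a1, Cd8a was at least 2.71-fold lower in the mutants. Cd4 and Cd79a differed by -0.03 and -0.16. Of 8 macrophage and neutrophil markers, 4 were below 0 and 4 above, with a median of 0.02. Among them, S100a8 and S100a9 were each higher by 2.24 (SE 0.78 and 0.88). S100a8 differed by 2.01 within replicate 1 and 2.48 within replicate 2, and S100a9 by 2.31 and 2.18. In the limma fit with the replicate number as a term, their adjusted p was 0.041 and 0.024. The neutrophil genes Csf3r and Ly6g differed by -0.015 and -0.14. Among genes that mark position along the colon, mutant replicate 2 stood apart, with Hoxb13 at 1.56 against 4.82, 3.52 and 4.43 on the other arrays, and Hoxd13 at -2.50 against 0.25, -0.54 and 0.15. The part of these cell types, and of the position sampled along the colon, in the members' differences was not tested.

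**Figure D4:**
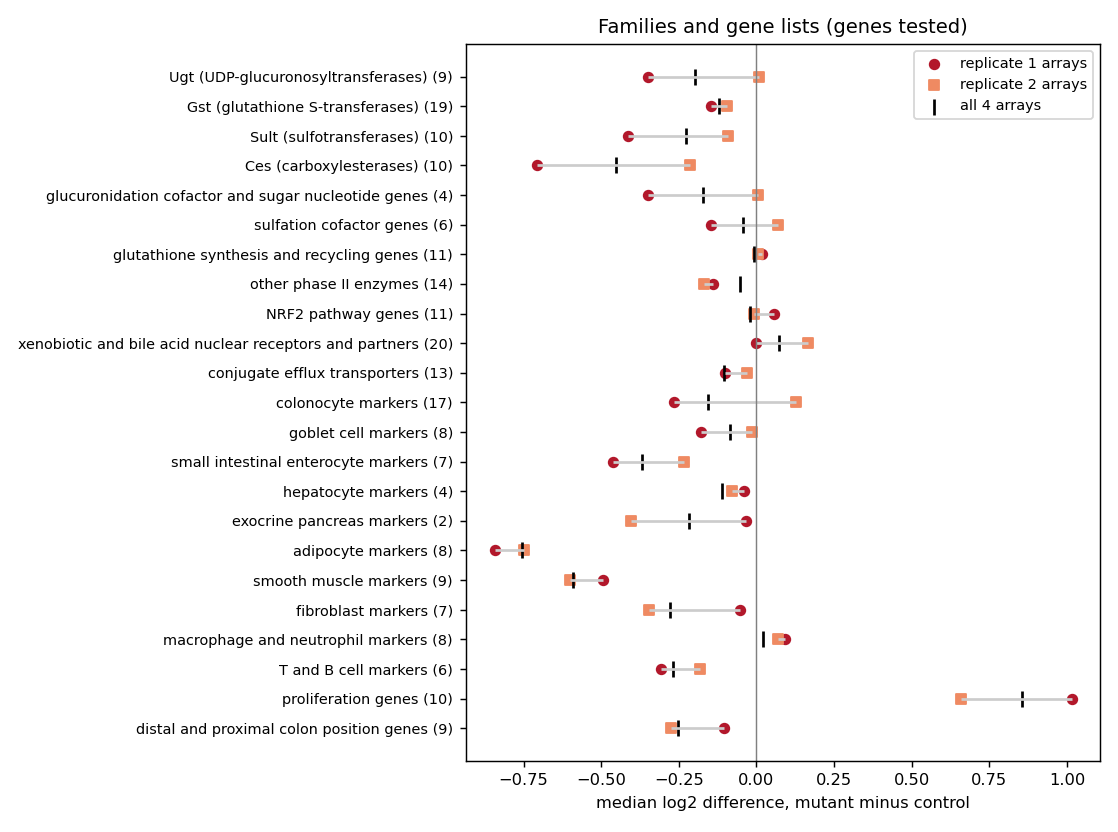
Median log2 difference (mutant minus control) of the 4 enzyme families and of the gene lists, on replicate 1 arrays (circles), replicate 2 arrays (squares) and all 4 arrays (bars), with the number of genes tested in parentheses. The Ces and Ugt families and the colonocyte markers are lower on the replicate 1 arrays than on the replicate 2 arrays, and adipocyte and smooth muscle markers are low on both.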

How the data were processed

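Total RNA of 4 colon samples was labelled with Cy3 and hybridised to 1-colour Agilent arrays. Per the file headers, the deposited processed signal is the background-corrected spot intensity from Agilent Feature Extraction 11.5.1.1, and the deposited flags mark spots well above background, saturated or outlying. The log2 signal minus the array's 75th percentile over non-control spots was used, averaged over a probe's spots; 11 probes without a clean spot were left out. A gene was represented by its brightest probe that was well above background on at least 2 of 4 arrays. Genotypes were compared for 19325 genes with limma 3.58.1 in R 4.3.3 (lmFit, eBayes with intensity trend, two-sided, 2 against 2 arrays), which was tested on simulated data. Errors are moderated standard errors. The number of arrays limits precision.

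Members and the 19 gene lists were chosen with earlier results of these data known. Named were all members with an unadjusted p under 0.05, the 3 lowest p per family, up to 3 genes per list, fixed regulators and, by their differences, other members; list genes beyond these were chosen after their values were seen. Alternatives covered background correction, scaling, filter, probe choice, replicate block, variance trend and leaving out each array. Promoters are RefSeq's (GRCm38.p6); probe coordinates are the files' (mm9).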

Additional observations from a re-analysis of the deposited data

Results flagged for a closer look

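Signal outside the comparison appeared in 2 member genes that did not pass the detection filter and were above background on mutant replicate 2 and on no control array. Sult2a2, a hydroxysteroid sulfotransferase gene, had a log2 signal of -3.14 there. Ugt3a2, a UDP-glycosyltransferase gene, had -3.66. Each rests on 1 array. Of the members that did not pass, 5 were above background on 1 array, and the others of these were seen on a control array alone. Those were Ces1b (-1.91) and Ces3b (-3.71) on control replicate 1 and Sult3a1 (-3.01) on control replicate 2.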

How the results depend on the processing

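No alternative turned the sign of the members' median. Among members, 12 were followed through every alternative: those with an unadjusted p under 0.05 and the 3 lowest p per family. None of these turned sign. Others did: without mutant replicate 1, 30 members were below 0, against 42 with all arrays. Ces2a was 1 of them, at 2.38 in mutant replicate 2 against a control mean of 2.24. Over the alternatives for 12 named members, 124 values kept direction and side of the unadjusted threshold, 17 lost it and 2 gained it. Across the filter, scaling, background and probe alternatives that tested all 48 members, 42 to 44 members were below 0, and without the dim-probe filter the median over all genes was -0.12 rather than 0.02. The excess of higher over lower genes at the unadjusted threshold (1026 against 770) turned round with quantile normalization (837 against 872), without the dim-probe filter (1290 against 2317), without the intensity trend (842 against 914) and without control replicate 1 (597 against 829). Members lower at an unadjusted p under 0.05 numbered 12 after quantile normalization. Averaging probes left 1 member with mutants above both controls. With a replicate block, 46 genes passed the adjusted threshold, 1437 were lower and 1945 higher at the unadjusted one, and 1 member was higher. Deviations of same-numbered arrays correlated at 0.239, and the labels do not say what a number marks. Leaving out 1 array gave 359 to 950 genes lower and 505 to 1217 higher, and 3 to 10 members lower. The lowest gene counts came without mutant replicate 1 and the lowest count of members without control replicate 2. In 22 to 37 members all remaining mutant arrays lay below all remaining controls, and in 2 to 11 above them. Such separation is easier to reach with fewer arrays, and its share over all genes was not computed there. Those 2 ranges therefore do not show how stable the counts with all arrays are. A slide or scan block was not run, because all arrays shared both. Causes were not tested. With 2 arrays a genotype, dim genes such as Sult5a1 are the least certain; its difference was -0.18 with normexp correction.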
